A study of Mus musculus with 2 samples.

Results

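The cytosolic ribosomal protein genes were read on 50 rows of the deposited array table, which carried 44 gene symbols. They were chosen by name alone, as rows whose platform annotation gave a single symbol that met a rule. The rule took Rpl or Rps followed by a digit, Rplp0, Rplp1, Rplp2 or Rpsa. It left out the Rps6k kinase genes, Rps19bp1 and symbols with -ps, which mark pseudogenes. Rpl6l, which RefSeq lists as a pseudogene, met the rule and was kept. The table held 65956 rows, of which 30604 had 1 symbol. The large subunit had 29 of the 50 rows and the small subunit 21. RNA came from γδ T cells with the Vγ6 receptor chain, sorted from the thymus of newborn (0-day-old) C57BL/6 mice. The mice were WT (wild type) or without MHC class II, through which CD4 T cells see antigen, and the latter (labelled MHC class II KO) are written KO from here on. Which class II gene is disrupted, the number of pups per sample and their sex are not in the labels. With 1 array for each genotype there is no replicate, error or test, and every statement compares these 2 arrays only.

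The ribosome makes all proteins of a cell from a small subunit, which reads the mRNA, and a large subunit, which joins the amino acids. Each subunit is ribosomal RNA bound by a fixed set of proteins, most of them encoded by 1 functional gene in the mouse with many processed pseudogene copies elsewhere in the genome. Their mRNAs are among the most abundant of growing cells, and many start with a run of pyrimidines, the 5′ terminal oligopyrimidine tract, through which mTOR and LARP1 control their translation together. In T cell development the family is best known for Rpl22, whose loss in mice blocks αβ T cells while γδ T cells still form.

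The start regions below show a run of C and T near the annotated start of some member genes, all with at least 8 letters. The lines of 4 canonical genes come first, and 3 lines of genes near the ends of the ranked differences follow. Capitals mark the longest run of C and T that starts with C, between 30 bases before and 50 bases after the annotated start, where runs were cut off. Sequences are from RefSeq, build GRCm38.p6, 5′ to 3′ on the strand of the gene, 30 bases each.
Rpl4 (chr9:64173405-64173434, plus strand): gagcgtggCCTTCTCCTCTCCCCgtcatgg
Rpl7a (chr2:26910789-26910818, plus strand): acaattCCCTCTTCTTTCTTTCTCCagcag
Rpl11 (chr4:136053357-136053386, minus strand): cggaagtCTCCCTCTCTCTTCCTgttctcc
Rps7 (chr12:28635911-28635940, minus strand): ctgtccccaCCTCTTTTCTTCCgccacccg
Rps10 (chr17:27635227-27635256, minus strand): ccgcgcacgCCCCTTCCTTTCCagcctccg
Rpl22l1 (chr3:28805500-28805529, plus strand): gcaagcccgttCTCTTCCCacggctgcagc
Rpl39l (chr16:10170191-10170220, plus strand): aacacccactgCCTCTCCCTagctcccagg
The run was 15 letters long at Rpl4, 19 at Rpl7a, 16 at Rpl11 and 13 at both Rps7 and Rps10. It was 8 at Rpl22l1 and 9 at Rpl39l. Rpl7l1 and Rpl27, also near the ends of the differences but not shown, had runs of 4 letters. Counted from the annotated start, the run began at -26 for Rpl39l, -12 for Rpl7a and -3 for Rps10. It began at 3 for Rpl22l1, 14 for Rpl11, 22 for Rps7 and 26 for Rpl4. Such a run need not be the tract at the start of the mRNA, and that of Rpl39l ended before the annotated start. Of 33 canonical member genes, 28 matched the promoter table by gene identifier, and 21 of these (75.0%) had a run of at least 8 letters in at least 1 window, against 26.0% of all 27025 genes in the table. The letters CCGGAAG, the core that ETS factors such as GABP bind, stood on either strand within the whole 300-base window of 14 of the 28 genes, against 9.93% of all genes. The letters AAGATGGC, found in YY1 sites, stood in 1 of the 28 (3.57%), against 3.19%, and TATAAA in 4 (14.3%), against 15.7%. CCGGAAG and AAGATGGC can overlap by the letters AAG. Annotated starts can lie some bases from the true ones, and a match of letters is not a binding site.

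The ribosomal protein genes had nearly the same signal on both arrays. Each difference is log2 of the KO signal less log2 of the WT signal, so values above 0 are brighter in KO. Of the 50 rows, 48 were above background on both arrays, and the remaining rows, Rpl3l and Rpl10l, were above it on neither. Background was taken from 1228 rows of olfactory receptors, genes known from the olfactory epithelium, as their 95th percentile, at log2 5.94 in WT and 5.86 in KO. The 48 differences ran from -0.56 to 0.39 with a median of -0.0024, and 22 lay above 0 and 26 below. None was 1.5-fold higher or lower, against 4.11% and 3.17% of the 14755 rows with 1 symbol that passed background on at least 1 array, or 7.28% in either direction. By at least 25% of the dimmer array, 3 of the 48 rows were higher in KO, against 14.5% of all rows, and 1 was lower, against 9.92%, which makes 4 in either direction, against 24.4%. By at least 2-fold none was apart, against 0.813% of all rows higher, 1.14% lower and 1.95% in either direction. Within 1.1-fold were 35 of the 48 (72.9%), against 41.4% of all rows. Members were also brighter than most rows, with a median log2 signal in WT of 13.8 against 8.46. Other bright rows differed little too. Of 334 rows with 1 symbol over 65535 on at least 1 array, neither members nor their pseudogenes, 69.8% were within 1.1-fold. Within 25% were 95.8% of these, and 4 were at least 1.5-fold higher and 1 lower. The robust SD of the differences, which is the spread around the median scaled from the median absolute deviation, was 0.11 for the members and 0.25 for all rows, whose median was 0.04. The summed signal of the 50 rows was 3446770 in WT and 3437540 in KO, a ratio of 0.997.

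**Figure D1:**
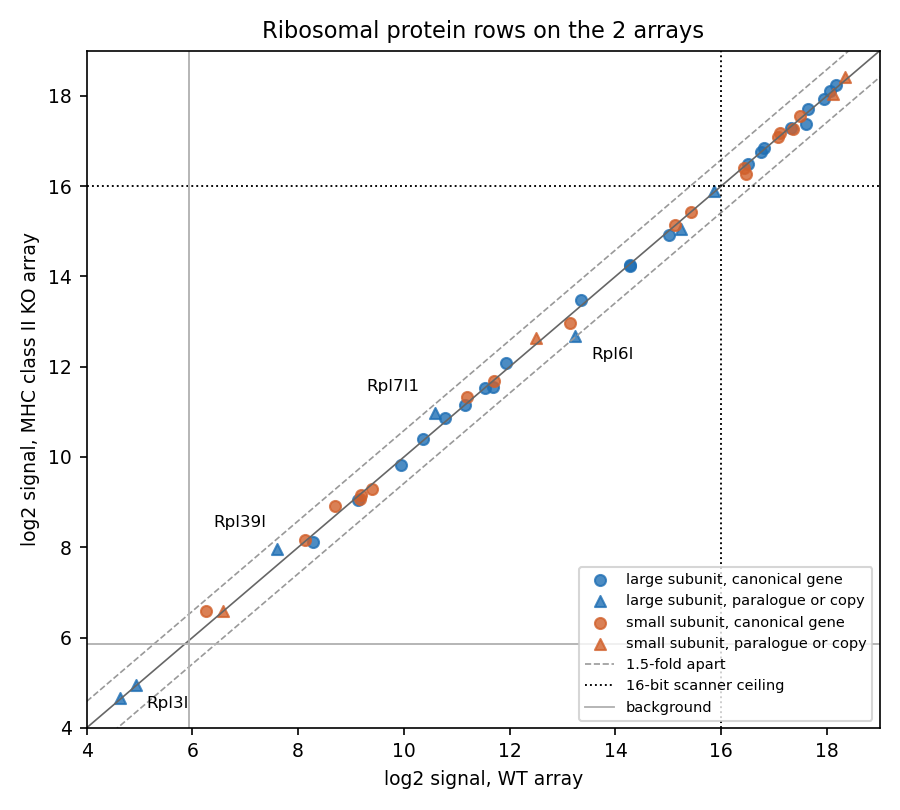
Log2 signal of each of the 50 ribosomal protein rows on the WT (horizontal axis) and KO (vertical axis) arrays, coloured by subunit, with circles for canonical genes and triangles for paralogues and copies. All rows lie between the dashed lines of a 1.5-fold difference, and the 2 rows below background are Rpl3l and Rpl10l.

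Among the large subunit genes, signals covered nearly the whole range of the arrays. The brightest row was that of Rpl41, which encodes a very short peptide of the subunit, with signals of 293600 in WT and 310857 in KO. It was brighter in KO by 0.08. Rpl4, a core protein that lines the exit tunnel, read 271906 and 284678 (0.07). Rpl37a read 204589 and 215154 (0.07), again brighter in KO. Rpl8, which sits beside the centre where peptide bonds form, read 164790 and 161249 (-0.03). The dimmest canonical row of this subunit was Rpl11, whose protein with that of Rpl5 and the 5S ribosomal RNA can bind the p53 regulator MDM2. It read 310.2 in WT and 278.9 in KO, a difference of -0.15. Rplp0, the base of the stalk that elongation factors touch, read 19842.6 and 19536.3 (-0.02). Rpl38, known for its effect on the translation of Hox mRNAs, read 19773.5 and 19304.5 (-0.03). Both of these were within 1.1-fold. Rpl10a read 2280 and 2277 and Rpl6 read 2961 and 2956, differences of -0.0022 and -0.0027. Rpl7 was brighter in KO by 0.09, and Rpl39, a neighbour of the tunnel exit, by 0.05. Rpl19 and Rpl22 were dimmer there, with differences of -0.09 each, as was Rpl31 at -0.12, whose only row lay on another chromosome than the gene.

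Among the small subunit genes, the brightest rows carried the symbols Rps3a2 and Rps3a3, with no gene identifier. Rps3a2 had signals of 331365 in WT and 347704 in KO (0.07). Rps3a3 read 284303 and 269368 (-0.08), and Rps3a1 itself 185228 and 191348 (0.05). Of these 3 rows, then, 2 were brighter in KO and 1 was dimmer, all within 1.1-fold. Rps4x, the X-linked gene of an RNA-binding protein of the subunit, read 137767 and 139662 (0.02). Rps29 was brighter in KO by 0.06 and Rps7 differed by -0.03. Rpsa, also known as the laminin receptor precursor, read 44364.9 and 44352.3, the smallest difference of all members at -0.0004. Rps10, 1 of the genes mutated in Diamond-Blackfan anaemia, had the lowest difference of the small subunit among genes with a single row, reading 9004.5 in WT and 8014.9 in KO (-0.17). Rps19, the gene most often mutated in that disease, had a low signal of 280.2 in WT and 285.1 in KO (0.03). Rps14, known from the 5q deletion syndrome, read 670.3 and 622.8 (-0.11). At the other end Rps20 read 417.2 and 484.1 (0.21), and Rps9 2345.8 and 2591.9 (0.14). Rps18, Rps24 and Rps28 differed by -0.10, -0.03 and -0.03, and Rps15 by 0.02.

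**Figure D2:**
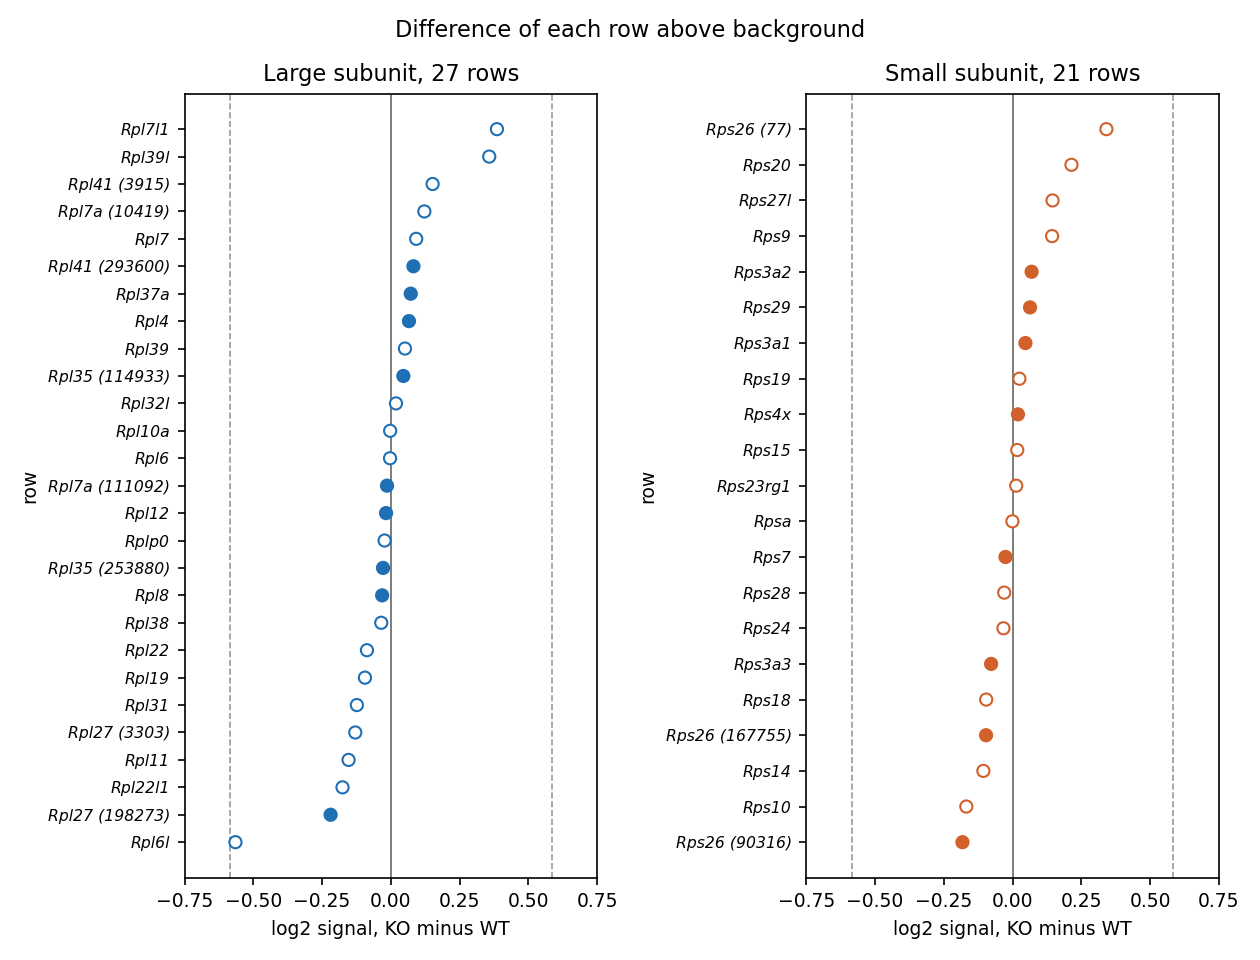
Difference in log2 signal, KO minus WT, of each row above background, sorted within the large (27 rows) and small (21 rows) subunit; filled points are rows over the 16-bit ceiling and dashed lines mark 1.5-fold. Genes with more than 1 row carry the WT signal in brackets. The point of Rpl6l, at -0.56, comes closest to the line.

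The subunits did not separate. The median difference was -0.01 for the 27 large subunit rows above background and 0.01 for the 21 small subunit rows, a gap of 0.03. Among canonical genes alone it was -0.0154 for 22 large subunit rows and -0.0004 for 17 small subunit rows. The large subunit had 11 rows above 0 and 16 below, and the small subunit 11 and 10. Within 25% were 24 of 27 large subunit rows and 20 of 21 small subunit rows. The range was wider in the large subunit, from -0.56 to 0.39, than in the small subunit, from -0.18 to 0.34, and both ends of the large subunit range were paralogues or copies. Among canonical rows alone the small subunit had the wider range, from -0.18 to 0.34, against -0.22 to 0.15 for the large. The end at 0.34 was 1 row of Rps26 without a gene identifier and near background, at 76.5 in WT and 96.9 in KO. The next highest row of the small subunit was Rps20 at 0.21. The median log2 signal in WT was 14.3 for the large and 13.1 for the small subunit, with ranges of 7.59 to 18.2 and 6.26 to 18.3. Rows have different probes, so these signals are not levels of RNA that can be set against each other. The 16 rows of proteins shared with bacteria (names uL and uS) had a median difference of -0.0013, and the 23 rows of proteins found in eukaryotes or archaea had -0.03. Differences of this size can change sign with the scaling: under 3 other scalings 39 of the 48 rows kept 1 sign, 17 above 0 and 22 below, while 9 rows did not, namely Rpl12, Rpl32l, Rps15, Rps19, Rps23rg1, Rps4x, Rpsa and the brighter rows of Rpl35 and Rpl7a.

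Many of the family's rows passed the scanner's range. A 16-bit scanner reads up to 65535, and 17 of the 50 rows (34%) lay above that on both arrays, 9 of the large and 8 of the small subunit. Of all 65956 rows, 788 (1.19%) were above it on at least 1 array, and of the 30604 rows with 1 symbol 446 (1.46%). The submitters' processing carried values past this limit in a step that the sources used here do not describe, so folds of such rows may be narrowed or widened. These 17 rows made up 90.9% of the family's summed signal in WT. Their differences ran from -0.22 to 0.08 with a median of -0.01, and 15 of 17 (88.2%) were within 1.1-fold. The 31 rows above background and under the limit ran from -0.56 to 0.39 with a median of -0.0022, and 20 of 31 (64.5%) were within 1.1-fold. Over the limit the large subunit had a median of -0.01 and the small subunit -0.0029. The 334 other rows over the limit with 1 symbol, neither members nor their pseudogenes, had a median of 0.0032, ran from -0.62 to 1.14, and had 69.8% within 1.1-fold. Brightness and narrow spread went together within the family as well. The 16 brightest rows had a robust SD of 0.08, the 16 in the middle 0.12 and the 16 dimmest 0.18. The part of the step past the scanner's range in this was not tested.

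**Figure D3:**
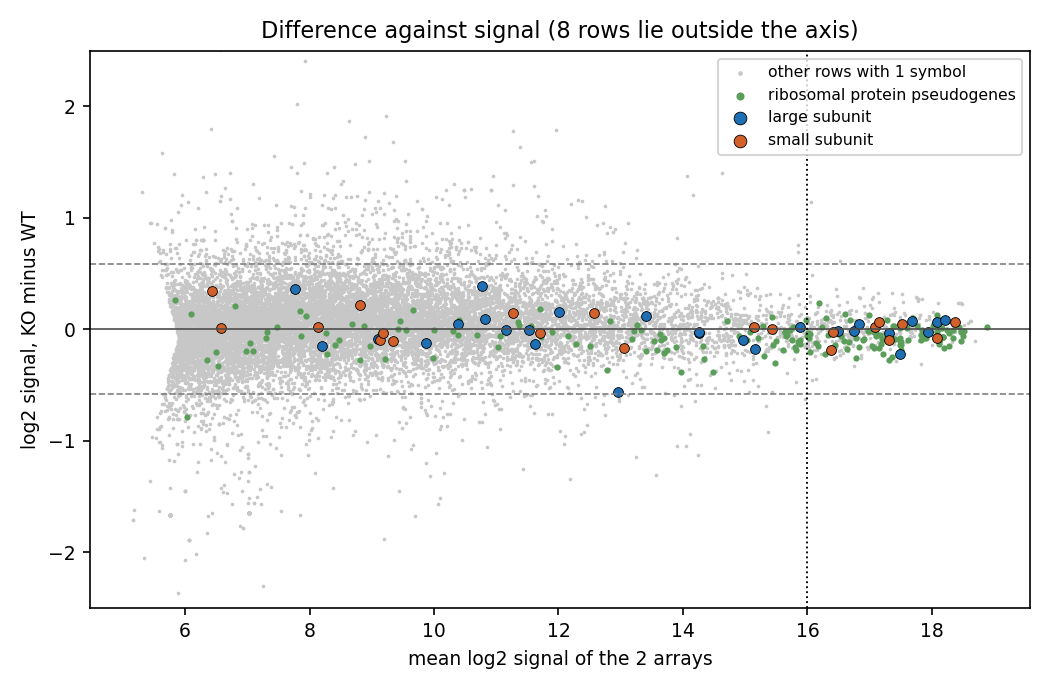
Difference in log2 signal, KO minus WT, against the mean log2 signal of both arrays for the 14755 rows with 1 symbol above background, with members and ribosomal protein pseudogenes coloured. Dashed lines mark 1.5-fold and the dotted line the 16-bit ceiling; 8 rows lie outside the axis, and the members lie in the narrow band around 0.

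Of the 5 genes with several rows, Rpl27 and Rpl41 had differences of 1 sign on all rows, and Rpl35, Rpl7a and Rps26 did not. The row identifiers name a chromosome, which matched that of the gene in RefSeq GRCm38.p6 for 98.8% of 22815 rows. Of the 50 member rows, 40 lay on the chromosome of their gene, 7 on another and 3 had no gene identifier. Of the 7 on another chromosome 6 were over the 16-bit limit, against 9 of the 40 on the chromosome of their gene. Copies share much of the sequence of a gene, so the signal of a row need not come from the functional gene. Rpl27 had a row on its own chromosome with signals of 3303.3 in WT and 3020.7 in KO (-0.13). Its row on another chromosome read 198273 and 170373 (-0.22), so both rows were dimmer in KO. Rpl41 read 3914.7 and 4349.9 (0.15) on its own chromosome and 293600 and 310857 (0.08) on another. Rpl7a read 10418.6 and 11339.3 (0.12) on its own chromosome and 111092 and 110049 (-0.01) on another. Rpl35 read 114933 and 118630 (0.05) on its own chromosome and 253880 and 248961 (-0.03) on another. For Rpl35 and Rpl7a the rows had opposite signs, but the sign of the brighter row changed with the scaling. Rps26, a protein near the mRNA exit, had 3 rows. That on its own chromosome read 167755 and 156925 (-0.10), that on another 90315.8 and 79606.0 (-0.18), and that without a gene identifier 76.5 and 96.9 (0.34), near the background level. Within a gene the rows lay 0.07 to 0.14 apart for Rpl27, Rpl35, Rpl41 and Rpl7a, which had 2 rows each. The furthest of the 3 rows of Rps26 lay 0.52 apart, 1 of them near background. Its 2 brightest rows differed less, at -0.10 and -0.18. For comparison, the SD of the gap between both brightest rows was 0.31 across 137 genes of any kind with at least 2 rows of different values. The 38 member rows above background on the chromosome of their gene had a median difference of 0.0065, and the 7 on another had -0.03.

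**Figure D4:**
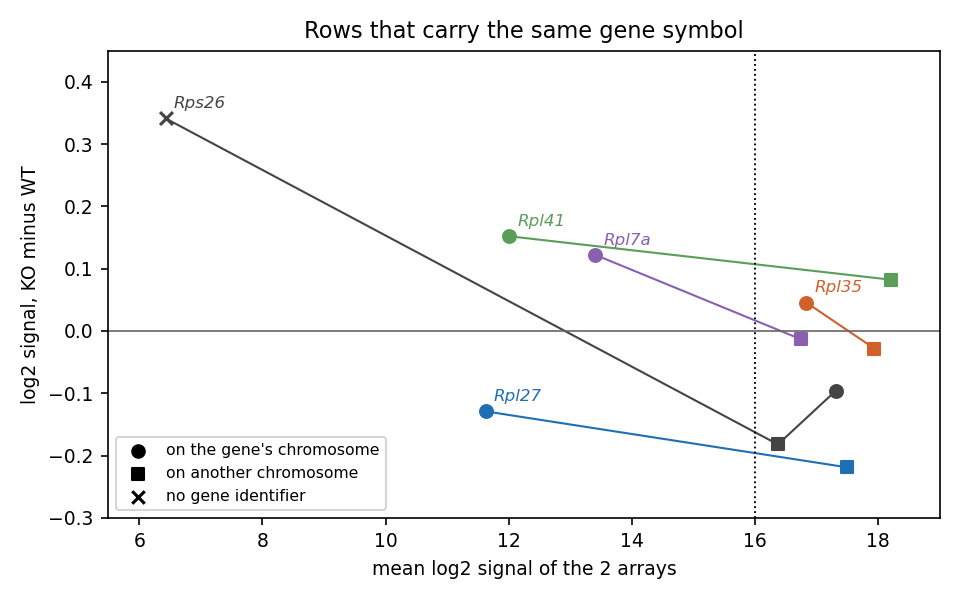
Difference in log2 signal, KO minus WT, against the mean log2 signal for the 5 genes with more than 1 row; lines join rows of a gene, symbols show whether a row lies on the chromosome of its gene, and the dotted line is the 16-bit ceiling. In Rpl27, Rpl35, Rpl41 and Rpl7a the row on another chromosome is the brighter, and the dimmest row of Rps26 stands at 0.34.

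The 3 rows furthest from 0 were paralogues or copies. Of 11 such rows, 9 were above background. Of these 9, 6 (66.7%) were within 25%, against 38 of 39 canonical rows. Of all 14755 rows with 1 symbol above background, 75.6% were within 25%. Rpl6l, which RefSeq lists as a pseudogene, had the lowest difference of all members. It read 9664.4 in WT and 6533.5 in KO (-0.56), while Rpl6 differed by -0.0027. Centring the differences on the median of all rows took Rpl6l past 1.5-fold. Rpl7l1, whose product resembles Rpl7 and is found in ribosome precursors, had the highest. It read 1534.7 and 2005.7 (0.39, or 1.31-fold higher), against 0.09 for Rpl7. Rpl39l, best known from male germ cells, read 193.3 and 247.7 (0.36), against 0.05 for Rpl39. Rps27l, a p53 target that stands in for Rps27, read 5763.3 and 6375.3 (0.15). Rpl22l1, the paralogue that Rpl22 represses, read 38611.2 and 34188.4 (-0.18). Rpl22 itself read 564.0 and 531.1 (-0.09), so both were dimmer in KO, and Rpl22l1 minus Rpl22 was -0.09. Rpl3l, known from heart and skeletal muscle, and Rpl10l, known from the testis, were below background on both arrays, with signals of 30.5 and 30.7 and of 24.8 and 25.2. Rpl32l and Rps23rg1 differed by 0.02 and 0.01.

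A further 53 rows carried several symbols, at least 1 of them of the family, and are given as a group because no single gene can be named for them. Of 77 canonical genes listed, 33 had a row of their own and 37 were found only in such shared rows. The other 7 were found on neither kind of row above background. The 53 rows were all above background on at least 1 array, with differences from -0.18 to 0.29, a median of 0.0035 and 27 above 0 and 26 below. All 53 were within 25% and 15 were over the 16-bit limit. Of 202 pseudogene rows, 192 were above background on at least 1 array, 95 were over the limit, and their median difference was -0.06, with 144 of 192 below 0 and 186 (96.9%) within 25%. For comparison, 6321 of the 14755 rows with 1 symbol were below 0 and 75.6% within 25%. All 788 rows over the limit, which include the 95 pseudogene rows, had 475 below 0 and a median of -0.03. The 334 of them with 1 symbol, neither members nor pseudogenes, had 164 below 0 and a median of 0.0032. Under the other scalings the median of the 192 pseudogene rows lay between -0.10 and -0.05, and 135 to 165 of them were below 0. As deposited, the median was -0.05 for 125 large subunit pseudogenes and -0.10 for 67 of the small subunit. For 17 canonical genes that had both a row of their own and pseudogene rows, the median of the pseudogene rows was lower than that of the gene in 14. Of the 17, 15 had a row on the chromosome of the gene, and 7 had at least 3 pseudogene rows. Rps19 differed by 0.03 and its 12 pseudogene rows had a median of -0.07, all below 0. Rpsa differed by -0.0004 and its 7 pseudogene rows by -0.12. Rps10 and its 4 pseudogene rows were both low, at -0.17 and -0.24. So were Rpl27, with a median of -0.17 over its 2 rows, and its 2 pseudogene rows, at -0.25. Across the 17 genes both values had a Pearson correlation of 0.506, a description of points that share the arrays and much of their sequence.

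In the other lists of translation and ribosome genes, few members were 1.5-fold apart. Of all 14755 rows above background, 8328 lay above 0, with a median of 0.04. Of 24 initiation factors above background, none was 1.5-fold apart, the median was -0.0054, and the ends were Eif1a (-0.30) and Eif5b (0.32), which joins the subunits. The 10 elongation and termination factors had a median of -0.03 with none 1.5-fold apart, from Eef1g at -0.20 to Gspt1, a release factor, at 0.27. The 10 other mRNAs known for a 5′ oligopyrimidine tract had a median of 0.02, from Npm1 at -0.14 to Vim at 0.25. Fau, the gene of a small subunit protein fused to a ubiquitin-like domain, differed by -0.10. Of 32 ribosome biogenesis factors above background none was 1.5-fold apart and the median was 0.03, with Brix1 and Gar1 at -0.35 each and Bysl at 0.45. Of 10 genes of RNA polymerase I and its factors, which copy ribosomal DNA, 9 lay above 0 and 1, Ttf1, was at least 1.5-fold higher (0.68), with a median of 0.18. The 15 genes of mTOR, LARP1 and MYC control had a median of 0.23, 12 above 0 and none 1.5-fold apart, with Tsc2 at 0.58 and Myc at 0.41. The 74 mitochondrial ribosomal protein genes, a separate set for the organelle, ran from -0.49 to 0.48 with a median of 0.07 and none 1.5-fold apart. The shares of all rows past this fold are 4.11% on the higher side and 3.17% on the lower. Of 4 genes of p53 sensing above background, Cdkn1a, the cell cycle inhibitor, was at least 1.5-fold lower (-0.63), while Mdm2 differed by -0.22, Mdm4 by 0 and Ccng1 by 0.46.

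**Figure D5:**
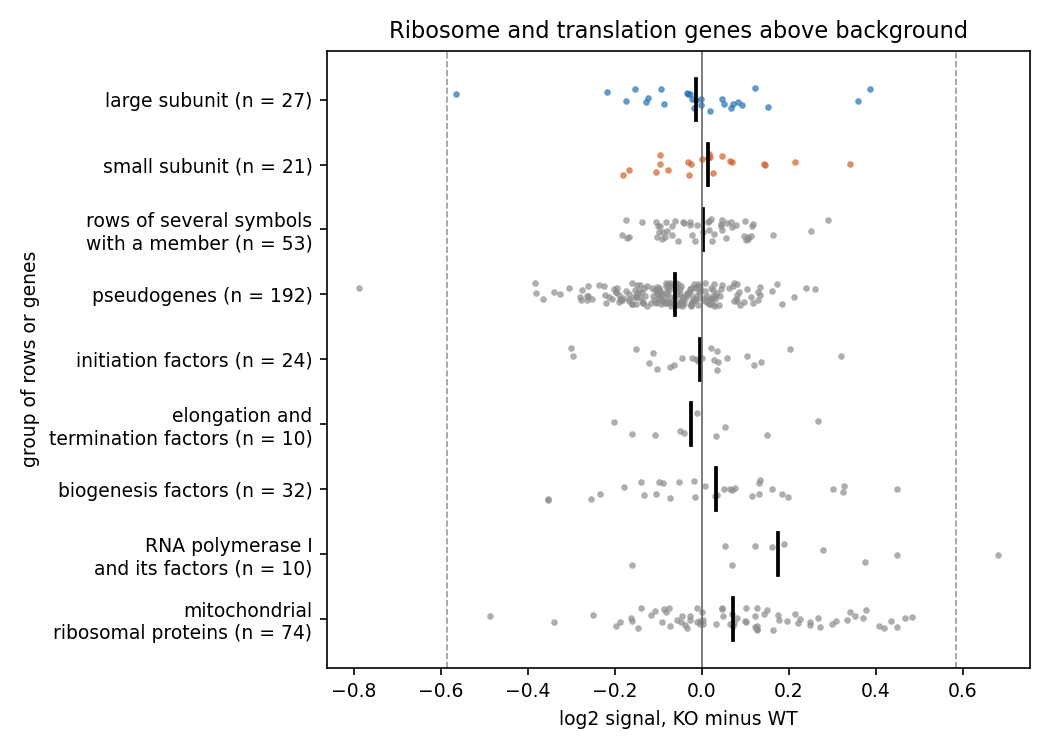
Difference in log2 signal, KO minus WT, for rows or genes above background in the groups of the ribosome and of translation; each point is a row or gene, black bars are medians and dashed lines mark 1.5-fold. The bars of the large and small subunit lie at -0.01 and 0.01, that of the pseudogenes at -0.06 and that of RNA polymerase I at 0.18.

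The labels of the arrays were checked in part. H2-Ab1, a class II gene, read 204.8 in WT and 101.8 in KO (-1.01), and H2-Eb1 read 123.6 and 63.1 (-0.97), both still above background in KO. H2-Aa read 68.0 and 33.8 (-1.01), below background in KO. The place of these probes relative to the deletion is not known. All 10 markers of the sorted cells with a row were above background on both arrays. Cd3e, of the T cell receptor complex, had log2 signals of 16.9 on both, Tcrg-V6 12.6 in WT and 12.3 in KO (-0.31), and Trdv4 12.7 and 12.9 (0.22). The cytokine gene Il17a read 1843.5 in WT and 621.7 in KO (-1.57), and the chemokine receptor gene Ccr6 202.6 and 555.8 (1.46). Of 11 genes that mark double positive or αβ thymocytes, 9 had a row and 8 were above background on at least 1 array. Of these 8, 6 were at least 1.5-fold higher in KO, against 4.11% of the 14755 rows with 1 symbol above background. The summed signal of the 9 rows was 12855.8 in WT and 31375.0 in KO, most of it from Cd8b1, at 10633.9 and 27602.5. Ptcra and Dntt were above background in KO alone. Above background on at least 1 array were 1 of 4 B cell markers with a row (Cd79b, 0.11), 2 of 8 of dendritic cells and macrophages (Cd68, 0.91, and Lyz2, 0.37), 1 of 2 of erythroid cells (Hbb-y, -0.22) and 2 of 6 of thymic epithelium (Krt8, -1.01, and Epcam, -0.42). Lyz2 was above it in KO alone, and Krt8 and Epcam in WT alone. Pax5, Ms4a1, Cd79a, Csf1r, Adgre1 and Foxn1 were below it on both. Fewer cells of a type and less RNA per cell cannot be told apart in sorted bulk RNA, and the part of other cells in the ribosomal protein differences was not tested.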

How the data were processed

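RNA from 2 sorted samples was labelled with biotin for GeneChip arrays, per the labels. The submitters' processing notes list RMA (robust multi-array average) and Affymetrix Expression Console 1.4.1. No source used here gives the RMA settings or the build behind the rows. What the authors deposited is a linear intensity for each transcript cluster, and the number of arrays limits its precision. Log2 was taken and the arrays were subtracted, MHC class II KO minus WT, with numpy 2.4.6 and pandas 2.3.3. Every row that met the name rule was used, and for the other gene lists the brightest row of a gene. No test was possible with 1 array per group. Members, lists and named genes were chosen with earlier results of these data known. Named genes were the ends of the differences and of the signal, paralogues, genes with several rows and a fixed list by role; other members named were picked after their values were seen. Alternatives were 3 scalings, 2 background filters, a floor at background, 1 value per gene, canonical genes alone and other folds. The steps were tested on simulated data.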

Additional observations from a re-analysis of the deposited data

How the results depend on the processing

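The medians and the gaps between them moved by at most 0.07 under 11 alternatives, which is more than their own size. The largest move was in the gap between members and all rows, from -0.04 to 0.03 with no background filter. The median of all members lay between -0.04 and 0.0065, that of the large subunit between -0.05 and 0.0021, that of the small subunit between -0.03 and 0.03, and that of rows over the 16-bit limit between -0.05 and 0.05, so none kept 1 sign. The small subunit stayed above the large by 0.0083 to 0.04. The members stayed below the median of all rows by up to 0.05, except with no background filter, where they were 0.03 above. No member was 1.5-fold apart except when differences were centred, with 1 row lower. At a threshold of 25%, 3 rows were higher and 1 lower, and at 2-fold none. Rows on the chromosome of their gene alone, and rows of several symbols, were added after the data were seen. No paired analysis was possible because each group has 1 array.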

Other observations

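The RNA part of the ribosome was read on a few rows, which were looked up after the results above were seen. Rn28s1, the RNA of the large subunit, read 80266.5 in WT and 89955.9 in KO (0.16). The mitochondrial ribosomal RNA mt-Rnr1 read 251389 and 279931 (0.16). Of 96 rows of 5S ribosomal RNA, the small RNA that joins Rpl5 and Rpl11, 76 were above background on at least 1 array, with a median difference of 0.21. Rn28s1 and mt-Rnr1 were thus brighter in KO. So was Rn7s1, which is not a ribosomal RNA, at 201485 in WT and 219016 in KO (0.12). The median was -0.0024 for the ribosomal protein rows and 0.04 for all rows with 1 symbol above background. Of all these rows, 41.4% were within 1.1-fold. Rn28s1, mt-Rnr1 and Rn7s1 lay over the 16-bit limit on both arrays, where folds may be narrowed or widened. Of the 446 rows with 1 symbol over the limit on at least 1 array, 72.6% were within 1.1-fold, with a median of -0.01. Single rows and medians of many rows are unlike measures. The sources used here do not say how ribosomal RNA was treated in labelling, and its part in these values was not tested. Rps19bp1, a nucleolar protein gene outside the family, read 533.8 and 623.6 (0.22).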
